A study of Mus musculus with 56 samples.

Results

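Bifidobacterium was followed as 1 genus of the intestinal bacteria in 28 male mice, through every amplicon sequence variant (ASV, a distinct 16S rRNA gene sequence) whose assigned genus was Bifidobacterium. These were 6 of the 938 ASVs in the count table, and they held 124178 of 1635252 counts (7.59%). The groups were MC4R knockout mice on a Western diet (KO-WD, n = 8) or a normal diet (KO-ND, n = 8) and C57BL/6J wild-type mice on a Western diet (WT-WD, n = 6) or a normal diet (WT-ND, n = 6). MC4R is a melanocortin receptor in the brain through which satiety signals act, and its loss leads to overeating and obesity. All mice were housed singly and had eaten chow and then the normal diet before the diet of their group began at an age of 10 weeks, and they stayed on it for 12 weeks. Contents of the large intestine (LI) and the small intestine (SI) gave 1 library each per mouse, 56 in all, with 22550 to 35236 counts per library (median 29721). The same sample number in LI and SI was taken as the same mouse. The genotype itself leaves no trace in bacterial counts, so it could not be checked here.

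Bifidobacteria are Gram-positive anaerobes of the phylum Actinobacteria that ferment sugars to acetate and lactate through a phosphoketolase pathway of their own. They live in the gut of mammals, where they use plant and host carbohydrates, and other gut bacteria take up the acids they release. Bifidobacterium pseudolongum is a species common in rodents and other animals.

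A single variant made up nearly all of the genus. This variant, called Bif-1 here, was assigned to B. pseudolongum. It had 123866 counts, 99.7% of all Bifidobacterium counts, was present in 52 of 56 libraries and ranked 3 among all ASVs of the table by counts. In 49 libraries it was the only Bifidobacterium variant, and its lowest part of the genus in any library was 95.5%. The other members were each seen in 1 LI library at most. Bif-2 had 129 counts in WT-ND mouse 3, where it was 2.47% of the genus. Bif-3 with 106 counts and Bif-4 with 56 counts were both found in WT-ND mouse 4 only, and Bif-4 was also assigned to B. pseudolongum. Bif-5 had 21 counts in KO-ND mouse 7, and Bif-6 had 0 counts in all 56 libraries. With so few other counts, the genus and Bif-1 are close to 1 measurement, and values below are for the genus unless Bif-1 is named.

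The share of Bifidobacterium, as percent of all counts of a library, spread widely among mice of the same group. In the LI, the share averaged 2.31% ± 1.20 in KO-WD (SD, n = 8), 7.66% ± 6.58 in KO-ND (n = 8), 0.684% ± 0.789 in WT-WD (n = 6) and 9.26% ± 5.72 in WT-ND mice (n = 6). The lowest, median and highest LI shares were 0.148%, 2.42% and 4.12% in KO-WD mice. They were 0.00936%, 5.48% and 19.4% in KO-ND mice. WT-WD mice had 0%, 0.505% and 2.09%, and WT-ND mice had 0.300%, 10.0% and 16.5%. Thus on a log scale 1 mouse in each of KO-WD, KO-ND and WT-ND lay far below the rest of its group. Dixon's outlier test of the shares in percent flagged 0 libraries. On that scale a low mouse is bounded by 0 and its gap is limited beside the wide range. The test thus says little about these low mice. The ranges of all groups overlapped.

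**Figure D1:**
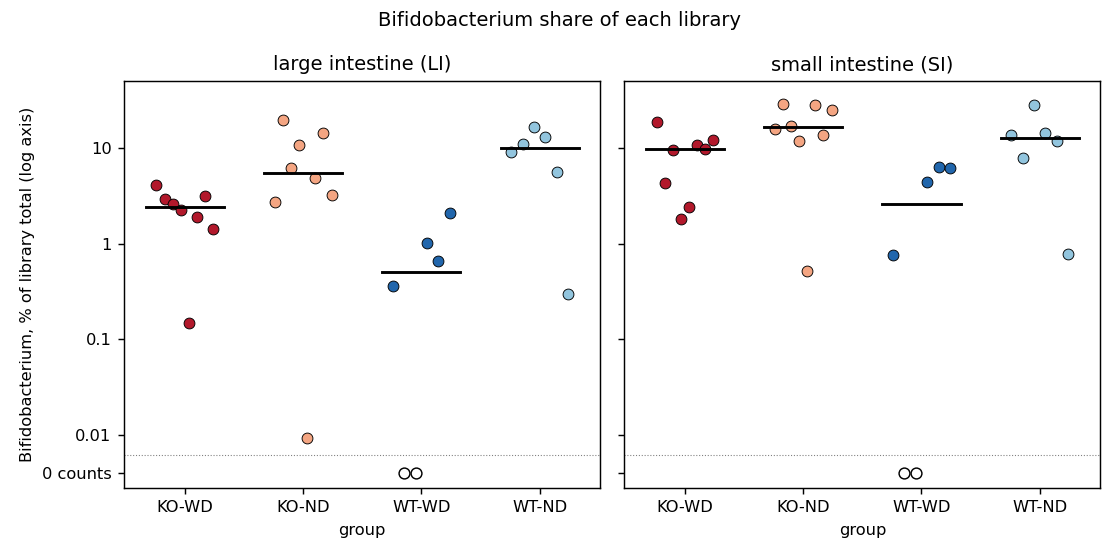
Share of Bifidobacterium in each library as percent of its total count, on a log axis, for the LI (left) and the SI (right). Each point is 1 mouse, black lines are group medians, and open points under the dotted line are libraries with 0 counts. The 2 open points in each panel are WT-WD mice, and single low mice stand out in KO-ND (0.00936% of LI counts and 0.520% of SI counts) and WT-ND (0.300% and 0.785%).

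Shares in the SI were higher than in the LI by mean in all 4 groups. They averaged 8.65% ± 5.60 in KO-WD (SD, n = 8), 17.6% ± 9.51 in KO-ND (n = 8), 2.96% ± 3.06 in WT-WD (n = 6) and 12.7% ± 8.97 in WT-ND mice (n = 6). In KO-WD mice the lowest, median and highest SI shares were 1.81%, 9.64% and 18.5%, and in KO-ND mice 0.520%, 16.4% and 29.0%. In WT-WD mice they were 0%, 2.60% and 6.37%, and in WT-ND mice 0.785%, 12.7% and 27.9%. The genus was among the 3 most abundant genera in 7 of 8 KO-ND and 5 of 6 WT-ND SI libraries, against 3 of 8 KO-WD and 0 of 6 WT-WD libraries. Counting error was small beside this spread, since the widest 95% Wilson interval of a share reached 0.580 percentage points to either side. Shares do not tell a fall of the genus from a rise of other bacteria.

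WT-WD mice 2 and 3 had 0 counts in both the LI and the SI. With 3 counts as the limit, this allows up to 0.00931% and 0.00921% in their LI and 0.00943% and 0.00939% in their SI libraries. KO-ND mouse 5 had 3 LI and 176 SI counts. WT-ND mouse 6 had 92 LI and 236 SI counts. KO-WD mouse 5, the lowest of its group in the LI (0.148%), had 2.44% in the SI, above KO-WD mouse 4 (1.81%). All other mice of the 2 normal-diet groups had shares of at least 2.75% (LI) and 7.85% (SI). The genus was detected in 8 of 8 KO-WD, 8 of 8 KO-ND, 4 of 6 WT-WD and 6 of 6 WT-ND mice.

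The question of what the Western diet did was asked within each genotype. In the LI, all 8 KO-WD shares lay below the KO-ND median of 5.48%, and 5 of 8 KO-ND mice lay above every KO-WD mouse. The log2 fold change was −1.73 ± 0.83 (SE), with an adjusted p of 0.409 by edgeR's quasi-likelihood test over 39 genera, of which 0% passed. In wild-type mice, all 6 WT-WD shares lay below the WT-ND median of 10.0%, and 5 of 6 WT-ND mice lay above every WT-WD mouse. That log2 fold change was −3.76 ± 1.52 (adjusted p = 0.166, 37 genera, 2.70% passed). Neither difference passed the threshold of 0.05 after adjustment by edgeR, while the wild-type difference passed with DESeq2 (adjusted p = 0.0208, log2 fold change −4.37). In an exact rank-sum test of the genus alone (two-sided) the unadjusted p was 0.0379 in knockout and 0.026 in wild-type mice, and adjusted over the genera it was 0.211 and 0.183.

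In the SI the estimates for the diet were smaller. All 6 WT-WD shares lay below the WT-ND median of 12.7%, and 5 of 6 WT-ND mice lay above every WT-WD mouse, with a log2 fold change of −2.10 ± 1.43 (adjusted p = 0.405 by edgeR, 30 genera, 0% passed). Of the KO-WD mice, 7 of 8 lay below the KO-ND median of 16.4%, while 3 KO-ND mice exceeded every KO-WD mouse. The log2 fold change was −1.02 ± 0.64 (adjusted p = 0.348 by edgeR, 23 genera, 0% passed). The unadjusted exact rank-sum p was 0.0499 in knockout and 0.0152 in wild-type mice, and neither passed after adjustment over the genera (0.329 and 0.152).

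Diet was also fitted over both genotypes in 1 model per site, a comparison chosen after the values had been seen. In the LI the log2 fold change of Western over normal diet was −2.58 ± 0.85, which is 6.00-fold lower, by edgeR with an adjusted p of 0.0591 (44 genera, 0% passed). The call depended on the method: it passed with TMM factors (adjusted p = 0.0474), with DESeq2 (0.00191) and without KO-ND mouse 5 (0.0335). In the SI the log2 fold change was −1.48 ± 0.67 (adjusted p = 0.134 by edgeR, 32 genera, 15.6% passed).

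The mice with both the knockout and the Western diet were next set against those with neither, the contrast of the obese liver disease model with its healthy control. In the LI, Bifidobacterium was lower in KO-WD mice: all 8 lay below the WT-ND median, and 5 of 6 WT-ND mice lay above the highest KO-WD mouse. The sixth, WT-ND mouse 6, had 0.300% and lay within the KO-WD range of 0.148% to 4.12%. The fall was 4.00-fold (log2 fold change −2.0 ± 0.70) and passed with an adjusted p of 0.0462 by edgeR, as did 25.6% of the 39 genera tested, so the genus was 1 of many called. Bif-1 passed likewise among ASVs (log2 fold change −1.97 ± 0.79, adjusted p = 0.0432 by edgeR, 47.9% of 188 ASVs passed). The call was close to the threshold. It was lost with TMM factors (adjusted p = 0.118), with all 4 groups in 1 fit (0.177) and in 11 of 14 fits with 1 library left out, those without any 1 of WT-ND mice 1 to 5 (0.0571 to 0.122) or KO-WD mice 2, 3, 4, 6, 7 and 8 (0.0606 to 0.0816).

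In the SI the same contrast gave no clear direction. KO-WD mice had 1.81% to 18.5% and WT-ND mice 0.785% to 27.9%, and the log2 fold change of −0.56 ± 0.68 did not pass (adjusted p = 0.485 by edgeR, 22 genera, 36.4% passed). Its sign turned with TMM factors (0.07), DESeq2 (0.59) and limma on centred log ratios (0.39).

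Knockout and wild-type mice were compared on each diet. The paper reports that its wild-type mice were purchased and its knockout mice generated by a published route, all kept in the same room. It does not fully exclude an influence of breeding origin, so genotype and origin cannot be told apart here. On the Western diet the knockout mice held more of the genus by mean in both sites. In the LI, 5 of 8 KO-WD mice lay above the highest WT-WD mouse (2.09%), with a log2 fold change of 1.76 ± 1.23 (adjusted p = 0.297 by edgeR, 41 genera, 34.1% passed). In the SI, 5 of 8 KO-WD mice also lay above the highest WT-WD mouse (6.37%), a log2 fold change of 1.54 ± 1.13 (adjusted p = 0.251 by edgeR, 29 genera, 58.6% passed). Both missed the threshold by edgeR. The SI difference passed with DESeq2 (0.0385, log2 fold change 2.95) and with limma on centred log ratios (0.0131, log2 fold change 6.73). The median genus lay at −3.67 by edgeR in this SI contrast, and centred ratios set each genus against the mean of those tested. The LI difference passed by the exact rank-sum test adjusted over the genera (0.0482). Each of these comparisons includes the 2 WT-WD mice without counts, and with any 1 library left out the adjusted p by edgeR was 0.192 to 0.402 in the LI and 0.142 to 0.375 in the SI.

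On the normal diet the genotypes were not told apart. In the LI, KO-ND mice had a log2 fold change of −0.27 ± 0.95 over WT-ND mice (adjusted p = 0.816 by edgeR, 41 genera, 29.3% passed), and the sign turned with TMM factors (0.57) and DESeq2 (0.07). In the SI it was 0.46 ± 0.71 (adjusted p = 0.663 by edgeR, 23 genera, 13.0% passed). Each error is larger than its estimate. Over both diets, again a comparison chosen after the values were seen, the log2 fold change of KO over WT was 0.69 ± 0.83 in the LI (adjusted p = 0.536 by edgeR, 43.2% of 44 genera passed) and 0.99 ± 0.68 in the SI (adjusted p = 0.193 by edgeR, 62.5% of 32 genera passed). The SI difference passed with DESeq2 (adjusted p = 0.0159, log2 fold change 2.09) and limma on centred log ratios (adjusted p = 0.0155, log2 fold change 3.66).

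By mean LI share the groups ran WT-ND, KO-ND, KO-WD and WT-WD from high to low, and by mean SI share KO-ND, WT-ND, KO-WD and WT-WD. No neighbours in either order passed the edgeR test. Whether the diet acted differently in the 2 genotypes was tested as an interaction. The diet estimate was less negative in knockout than in wild-type mice by 2.03 ± 1.55 log2 units in the LI (adjusted p = 0.787 by edgeR, 44 genera, 0% passed) and by 1.08 ± 1.31 in the SI (adjusted p = 0.838 by edgeR, 32 genera, 0% passed), so no difference between the genotypes was shown.

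Tested as a single ASV, Bif-1 gave nearly the same estimates as the genus and passed in the same 3 of 18 comparisons. In the LI its log2 fold change was −1.72 ± 0.98 for KO-WD over KO-ND (2.66% of 188 ASVs passed), −3.73 ± 1.49 for WT-WD over WT-ND (1.33% of 150), 1.76 ± 1.28 for KO-WD over WT-WD (45.1% of 182) and −0.25 ± 1.01 for KO-ND over WT-ND mice (52.2% of 182). In the SI it was −1.02 ± 0.78 for KO-WD over KO-ND (12.8% of 39 ASVs passed), −2.10 ± 1.20 for WT-WD over WT-ND (0% of 66), 1.54 ± 1.35 for KO-WD over WT-WD (61.5% of 52), 0.46 ± 0.79 for KO-ND over WT-ND (40.0% of 50) and −0.56 ± 0.76 for KO-WD over WT-ND mice (54.5% of 44). Bif-1 was not among the ASVs that passed in any of these 9 contrasts, with adjusted p between 0.329 and 0.87 by edgeR. Over both genotypes the Western over normal diet estimate was −2.57 ± 0.89 in the LI (adjusted p = 0.0871 by edgeR, 4.76% of 273 ASVs passed) and −1.48 ± 0.77 in the SI (0.24, 11.5% of 87), and KO over WT gave 0.70 ± 0.87 in the LI (0.518, 54.6% of 273) and 0.99 ± 0.78 in the SI (0.245, 73.6% of 87). Between the sites Bif-1 did not pass in WT-WD (adjusted p = 0.0803 by edgeR, 44.2% of 120 ASVs passed) or WT-ND mice (0.168, 35.8% of 106).

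**Figure D2:**
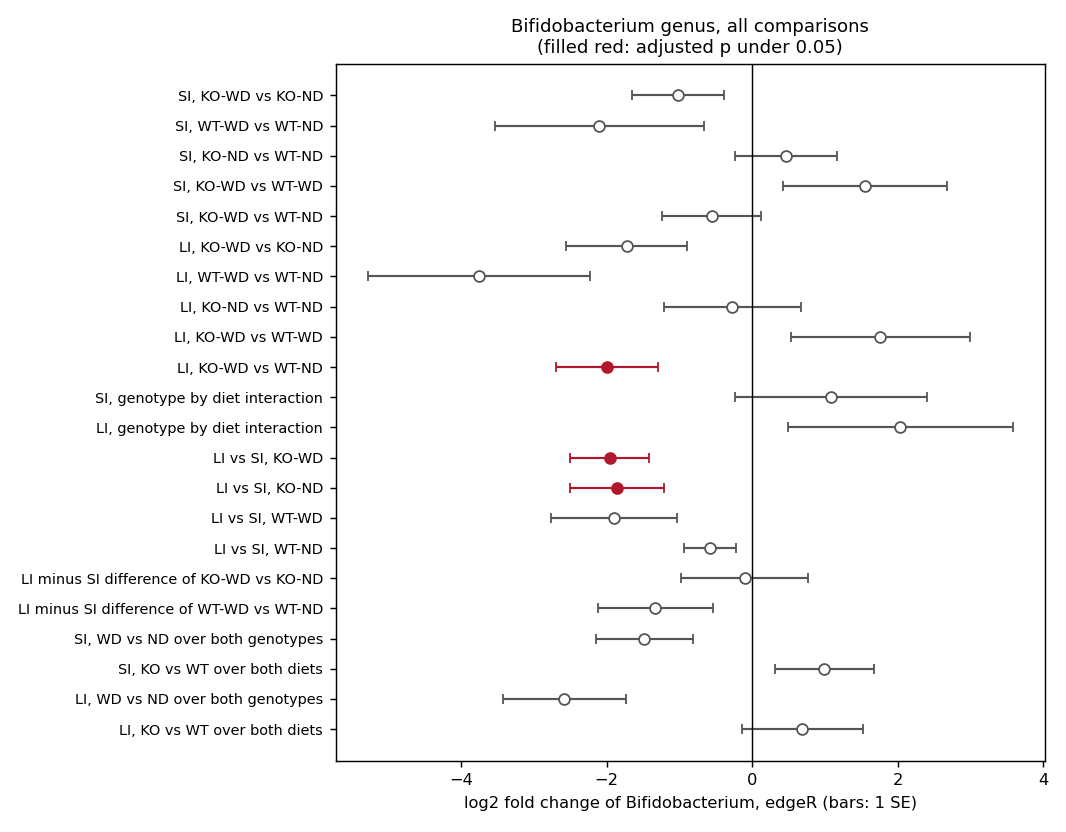
Log2 fold changes of the Bifidobacterium genus (x axis) in the 22 comparisons (y axis), with bars of 1 SE from edgeR. Filled red points passed an adjusted p of 0.05, which were LI of KO-WD over WT-ND (−2.0) and LI over SI in KO-WD (−1.96) and KO-ND (−1.85), while the 4 estimates of Western over normal diet within a genotype lie left of 0 with open points.

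Along the gut, the genus was lower in the LI than in the SI of the same mouse in 23 of the 26 mice with counts. This held for 7 of 8 KO-WD, 7 of 8 KO-ND, 4 of 4 WT-WD and 5 of 6 WT-ND mice. The median ratio of LI to SI share was 0.246 in KO-WD, 0.267 in KO-ND, 0.281 in WT-WD and 0.625 in WT-ND mice. The 3 exceptions were KO-WD mouse 4 (LI 2.27%, SI 1.81%), KO-ND mouse 7 (LI 14.2%, SI 13.6%) and WT-ND mouse 2 (LI 11%, SI 7.85%).

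With the mouse as a block, the lower LI share passed in both knockout groups. In KO-WD mice the log2 fold change of LI over SI was −1.96 ± 0.54 (adjusted p = 0.00408 by edgeR, 37 genera, 73.0% passed). In KO-ND mice it was −1.85 ± 0.65 (adjusted p = 0.00864 by edgeR, 36 genera, 72.2% passed), and this call was lost without the block (0.244). Most of the genera that passed ran the other way: 59.5% of the genera tested were higher and 13.5% lower in the LI of KO-WD mice, against 61.1% higher and 11.1% lower in KO-ND mice. Bif-1 passed in both groups too (adjusted p = 0.0143 in KO-WD, where 48.7% of 115 ASVs passed, and 0.0244 in KO-ND, where 64.8% of 122 passed, both by edgeR).

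In wild-type mice the difference did not pass. It was −1.90 ± 0.87 in WT-WD (adjusted p = 0.0773 by edgeR, 38 genera, 55.3% passed) and −0.58 ± 0.35 in WT-ND mice (adjusted p = 0.193 by edgeR, 31 genera, 41.9% passed). Both passed with DESeq2 (0.00643 and 0.00113) and with limma on centred log ratios (0.00716 and 0.00655). Those estimates were larger in size, at −2.71 and −1.61 with DESeq2 and −2.93 and −2.87 with limma. The median genus lay at 1.49 in WT-WD and 2.55 in WT-ND mice by edgeR. An exact two-sided sign-flip test over mice gave p = 0.0156 in KO-WD, 0.0156 in KO-ND, 0.125 in WT-WD and 0.0938 in WT-ND mice, and 0.125 is the smallest that the 4 WT-WD mice with counts allow. No difference of this change by diet was shown, with a difference of −0.10 ± 0.87 between KO-WD and KO-ND (adjusted p = 1 by edgeR, 4.88% of 41 genera passed) and −1.33 ± 0.79 between WT-WD and WT-ND mice (adjusted p = 0.619 by edgeR, 0% of 40 genera passed).

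**Figure D3:**
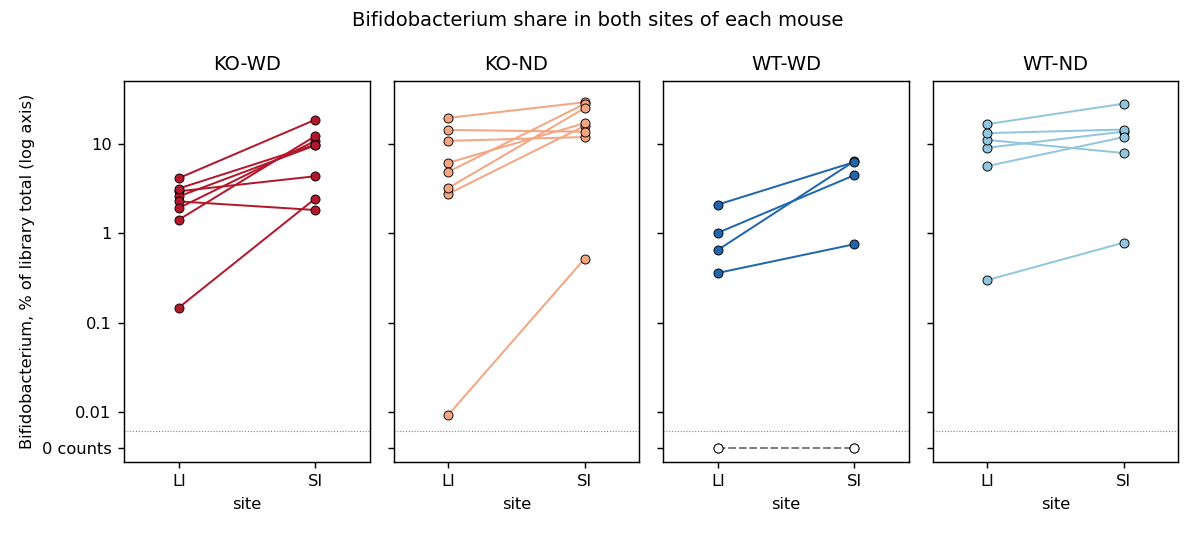
Share of Bifidobacterium in the LI and the SI (x axis) of each mouse, as percent of the library total on a log axis, by group. Each line joins the libraries of 1 mouse, and the dashed line with open points stands for both WT-WD mice with 0 counts; lines rise toward the SI in 23 of the 26 mice with counts.

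A relation between the shares of the 2 sites across the mice of a group was not reliably shown, and r depended on the mice with extreme SI shares. Pearson's r of log2 SI and LI shares was 0.505 in KO-WD, 0.917 in KO-ND, 0.991 in WT-WD and 0.958 in WT-ND mice, and Spearman's rho was 0.310, 0.357, 0.824 and 0.829. The exact permutation p of r in this family of 4 was 0.202, 0.0741, 0.0111 and 0.025 (adjusted 0.202, 0.0987, 0.0444 and 0.05), and that of rho was 0.462, 0.389, 0.0528 and 0.0583 (adjusted 0.462, 0.462, 0.117 and 0.117). Without the 2 mice farthest from the median SI share, r was 0.0383 in KO-WD, −0.624 in KO-ND, 0.759 in WT-WD and −0.0236 in WT-ND mice. The mice left out were 2 and 5 in KO-ND and 3 and 6 in WT-ND mice, the highest and lowest of their groups in both sites. Leaving out mouse 5 alone gave r = −0.107 in KO-ND mice, while in WT-ND mice r stayed at 0.533 or more without any 1 mouse. In WT-WD mice the mice without counts form a cluster of their own, with too few others to test.

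Bifidobacterium was the main part of its phylum in most libraries. Among Actinobacteria counts, its median part in the LI was 79.6% in KO-WD, 67.0% in KO-ND, 35.5% in WT-WD and 84.2% in WT-ND mice. The KO-ND value includes mouse 5, which had only 3 Actinobacteria counts in the LI, all of them Bifidobacterium. In the SI it was 94.1% in KO-WD, 74.2% in KO-ND, 52.8% in WT-WD and 78.2% in WT-ND mice. The other Actinobacteria, 25 ASVs with counts, made up 1.20% of the LI counts in KO-WD, 2.96% in KO-ND, 0.804% in WT-WD and 2.23% in WT-ND mice by mean, and 2.90%, 4.96%, 3.12% and 3.70% of the SI counts in the same order. The 2 WT-WD mice without Bifidobacterium still had 634 and 902 Actinobacteria counts in the SI, beside 93 and 109 LI counts.

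**Figure D4:**
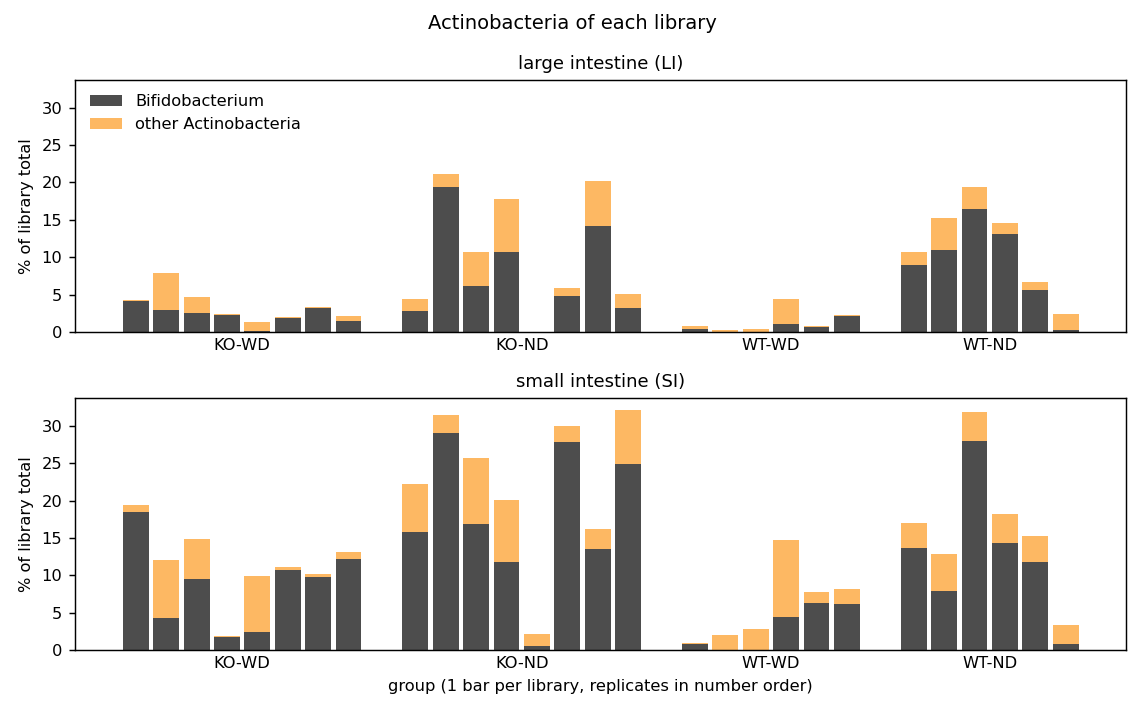
Actinobacteria in each library as percent of the library total (y axis), with Bifidobacterium in dark grey and all other Actinobacteria in orange, for the LI (top) and the SI (bottom). Each bar is 1 library, ordered by group and mouse number (x axis); the Bifidobacterium part has a median of 79.6% of the phylum in the LI of KO-WD and 84.2% in the LI of WT-ND mice.

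The table held 5 other Actinobacteria groups. Adlercreutzia, known for turning soy isoflavones into equol, was lower in the LI of KO-ND than of WT-ND mice (log2 fold change −4.62 ± 1.49, adjusted p = 0.0263 by edgeR). Bifidobacterium had −0.27 ± 0.95 in this contrast. The mean LI share of Adlercreutzia was 0.150%, with counts in 21 of 28 LI libraries. The sizes of its LI changes, here and below, may thus rest on counts near 0. Coriobacteriaceae without a genus name did not pass in any comparison within a site, with −0.86 in the LI of KO-WD over WT-ND mice (adjusted p = 0.66). In that contrast 0 of 2 other Actinobacteria tested passed, with a median log2 fold change of −1.10. Over all 39 genera 25.6% passed, with a median of 0.52. Corynebacterium was higher in the SI of KO-WD mice than of WT-WD (5.58 ± 2.08, adjusted p = 0.0261) and WT-ND mice (7.76 ± 2.25, adjusted p = 0.0133 by edgeR). It had counts in only 7 of 28 SI libraries, at a mean share of 0.0328%. The sizes of its changes, here and below, thus rest on groups with counts at or near 0. Corynebacterium fell below the filter in the pairwise SI contrasts without KO-WD mice, so it was tested only through the group where it was high. In the comparison of genotypes over both diets, Adlercreutzia was lower in the LI of KO than of WT mice (−3.12 ± 0.92, adjusted p = 0.00518 by edgeR). Corynebacterium (5.46 ± 1.44, adjusted p = 0.00144 by edgeR) and the soil-associated Arthrobacter (5.17 ± 1.46, adjusted p = 0.00272 by edgeR) were higher in the SI of KO mice. Arthrobacter fell below the filter in every SI contrast of 1 knockout with 1 wild-type group. Whether either genus entered a fit depended on the groups where it was high, so these SI calls carry little information. Between the sites, Corynebacterium was lower in the LI than in the SI of KO-WD mice (−6.70 ± 1.94, adjusted p = 0.0109) and Adlercreutzia in KO-ND mice (−5.94 ± 1.58, adjusted p = 0.000779 by edgeR), where Bifidobacterium was lower in the LI too. These were 1 of 4 other Actinobacteria tested in KO-WD and 1 of 2 in KO-ND mice, with 0 of 2 in WT-WD and 0 of 2 in WT-ND mice. The shares of all genera tested that were lower in the LI were 13.5%, 11.1%, 15.8% and 3.23% in these groups. Counts this small do not show a trait of the phylum.

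Of 8 listed genera that make lactate, 5 had counts. In the LI of KO-WD over WT-ND mice 0 of 4 tested passed, with a median log2 fold change of 0.79, beside 25.6% passing and a median of 0.52 over all 39 genera. Lactobacillus, the main lactic acid bacterium of the mouse gut, and Bifidobacterium both had higher mean shares in KO-WD than in WT-WD mice, but only Lactobacillus passed (2.46 ± 0.89 in the LI, adjusted p = 0.046, and 1.96 ± 0.46 in the SI, adjusted p = 0.00145 by edgeR). Lactococcus, a lactic acid bacterium best known from milk, was lower in KO-WD than in WT-WD mice (−2.10 ± 0.61 in the LI, adjusted p = 0.0145, and −3.67 ± 0.77 in the SI, adjusted p = 0.00124). Taking Lactococcus out of the totals left the LI fall of Bifidobacterium in KO-WD against WT-ND mice at −2.03 (adjusted p = 0.04 by edgeR).

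Between the sites, 2 of 4 lactate producers tested were lower in the LI of KO-WD, 2 of 4 of KO-ND, 4 of 5 of WT-WD and 1 of 3 of WT-ND mice, and 0 were higher. Over all genera tested, 13.5%, 11.1%, 15.8% and 3.23% were lower in the LI in the same order of groups. Lactobacillus was lower in the LI in all 4 groups, with a log2 fold change of LI over SI of −1.52 ± 0.41 in KO-WD (adjusted p = 0.00367), −1.20 ± 0.48 in KO-ND (0.0226), −2.40 ± 0.56 in WT-WD (0.00408) and −2.86 ± 0.87 in WT-ND mice (0.0211, all by edgeR). Of listed genera with users of lactate or acetate, 3 of 3 tested were higher in the LI of KO-WD, 2 of 2 of KO-ND, 3 of 3 of WT-WD and 2 of 2 of WT-ND mice. These genera were nearly absent from the SI, with Coprococcus counts in 8 and Roseburia counts in 2 of 28 SI libraries. They entered these tests through their LI counts, so the shared direction carries little information. Most genera called between the sites were higher in the LI, with 59.5%, 61.1%, 39.5% and 38.7% of all genera tested in these groups. Among the listed users, Coprococcus, a butyrate producer of the Lachnospiraceae, was 8.78 ± 1.77 log2 units higher in the LI of KO-WD mice (adjusted p = 0.00226 by edgeR). Its mean SI share over all groups was only 0.0154%, so the size of this change rests on SI counts at or near 0. Of 10 genera in this list, 5 had counts, and 0 of 3 tested passed in the LI of KO-WD over WT-ND mice, where 25.6% of all genera did.

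Genera with the most similar pattern across libraries were ranked by Spearman correlation of shares over the 28 libraries of a site, given as a description because shares of a library sum to a whole and groups differ. In the LI, Coriobacteriaceae without a genus name came first (0.603), then Allobaculum (0.441), Lactobacillus (0.346), F16 without a genus name (0.162) and the genus written [Prevotella] (0.131), while the median over 43 genera was −0.203. The lowest were [Ruminococcus] (−0.716), Coprococcus (−0.596) and [Mogibacteriaceae] (−0.546). In the SI the highest were Coriobacteriaceae (0.314), Rikenellaceae (0.210, with counts in only 3 libraries), Lactobacillus (0.191), F16 (0.178, with counts in only 7) and S24-7 (0.0441). The lowest were Coprococcus (−0.659), Oscillospira (−0.566) and Staphylococcus (−0.542), with a median of −0.247 over 38 genera. By this ranking Coriobacteriaceae led in both sites, Lactobacillus was among the 3 highest in both and Coprococcus among the 3 lowest. The ranking mixes differences between groups with those within them. For deviations of log2 shares from group means, r in the LI was 0.370 for Coriobacteriaceae, 0.619 for Allobaculum, 0.591 for Lactobacillus and −0.356 for Coprococcus. In the SI these were 0.144, 0.395, 0.0619 and −0.535. Coriobacteriaceae thus did not lead within groups in either site.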

How the data were processed

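Contents of a 4 cm segment each of the small and large intestine were sequenced over the V3-V4 region of the 16S rRNA gene. The authors extracted reads with FASTX-Toolkit 0.0.14, filtered them with Sickle 1.33 (quality 20, length 130), merged pairs with FLASH 1.2.11 and denoised them with DADA2 (QIIME 2 2021.4). Taxon names come from Greengenes 13_8. The deposited table holds raw counts per ASV, not normalized, with no value of 1 (lowest count above 0 was 2). ASV names at species rank are those of Greengenes.

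Counts were summed to 67 genera. Groups were compared in R 4.3.3 with the quasi-likelihood test of edgeR 4.0.16, scaled by library totals. P-values were adjusted by Benjamini-Hochberg over all genera (or all ASVs) of a fit, with 0.05 as threshold. A genus or ASV was tested if its mean share over the fitted libraries reached 0.01% and 4 or more of them held counts. Pairwise fits held the 2 groups only, and comparisons of sites had the mouse as a block. The SE is the log2 fold change divided by the square root of F. Alternatives were TMM factors, DESeq2 1.42.0 (poscounts), limma 3.58.1 on centred log ratios (0.5 added), exact tests, no filter, a filter of 0.1%, rarefied counts, all 4 groups in 1 fit, a replicate block and leaving out each library. The edgeR step and the exact rank-sum test were tried on simulated data. Wilson intervals and limits of 3 counts cover counting error only, since amplicon reads are not independent molecules. No 2 libraries of a group agreed within sampling noise (172 pairs).

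Same-numbered LI and SI libraries deviated from their group means together (median correlation 0.457 in KO-WD, 0.615 in KO-ND, 0.615 in WT-WD and 0.432 in WT-ND mice, lowest 0.0189 in KO-WD). Numbers did not pair mice of different groups. Named in the text are the Bifidobacterium ASVs, the 5 most and 3 least similar genera per site and genera of 3 lists, chosen with earlier results of these data known. Members seen in 1 library were named after their values were seen. A list of organelle sequences matched 0 ASVs. Log2 shares of libraries without counts were set to 1 common value. Python 3.11.15 with scipy 1.17.1 was used for the exact tests.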

Additional observations from a re-analysis of the deposited data

How the results depend on the processing

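Values here are adjusted p unless named otherwise. The fall of Bifidobacterium in the LI of KO-WD against WT-ND mice was also lost without a filter (0.0609), with the 0.1% filter (0.0504), with the replicate block (0.259), with TMM (0.118), with all groups in 1 fit (0.177) and by the adjusted exact rank-sum test (0.0816), and ran from 0.0075 to 0.122 with 1 library left out. It passed with DESeq2 (0.018), limma (0.0342) and rarefied counts (0.0448). The LI against SI difference of KO-ND mice was lost without the block (0.244). By the unadjusted exact rank-sum test, p was 0.0499 and 0.0379 for KO-WD against KO-ND in the SI and LI, 0.0152 and 0.026 for WT-WD against WT-ND, and 0.0196 for KO-WD against WT-WD in the LI (adjusted 0.0482). With DESeq2 these passed: KO-WD against WT-WD in the SI (0.0385), WT-WD against WT-ND in the LI (0.0208), LI against SI in WT-WD (0.00643) and WT-ND mice (0.00113), KO against WT in the SI (0.0159) and Western against normal diet in the LI (0.00191, with TMM 0.0474). With limma these passed: KO-WD against WT-WD in the SI (0.0131), LI against SI in WT-WD (0.00716) and WT-ND mice (0.00655) and KO against WT in the SI (0.0155). Leaving out 1 library gave 0.0452 to 0.317 for LI against SI in WT-WD mice (under the threshold without mouse 1) and 0.0335 to 0.101 for Western against normal diet in the LI. Signs turned without a pass in 3 contrasts. KO-WD against WT-ND in the SI turned with TMM (0.914), DESeq2 (0.541) and limma (0.728), and for Bif-1 with TMM (0.891) and limma (0.439). KO-ND against WT-ND in the LI turned with TMM (0.717) and DESeq2 (0.97), and for Bif-1 with TMM (0.819) and DESeq2 (0.851). The LI and SI difference of KO-WD against KO-ND turned with DESeq2 (0.953, Bif-1 0.999), for Bif-1 with TMM (1), and without KO-ND mice 2, 4 or 7 or KO-WD mice 5 or 8 (all 1). Bif-1 passed in 3 of 18 comparisons, in 6 with limma and in 1 with the replicate block or, between sites, without it. The SI and LI correlation of WT-WD mice had r = 0.804 and did not pass for shares in percent. With 1 mouse left out, r ran from 0.986 to 0.999 in WT-WD, −0.107 to 0.941 in KO-ND (negative without mouse 5) and 0.533 to 0.989 in WT-ND mice. The cause of these changes was not tested. Over all alternatives for results that answer a comparison, fits with 1 library left out included, 542 left call and direction as they were, 25 lost a call, 20 gained one, 12 turned the sign and 2 moved a count. Many of the 542 concern results that never passed, for which an unchanged call says little. Replicate numbers of different groups mark no shared mouse, so a call lost under that block is not a weaker effect. Counting error at these depths was at most 0.580 percentage points of a share, smaller than the SD among mice of every group.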
